A study of Homo sapiens with 8 samples.

Results

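The calponins CNN1, CNN2 and CNN3, the smooth muscle genes ACTA2, TAGLN, MYL9, CALD1 and TPM1 and the cytoplasmic actins ACTB and ACTG1 were described in RD18 cells transfected with a pair of microRNAs. These 10 genes were selected from the count table by symbol, and they were chosen from the contrast described here because treatment came with more CNN1 RNA and with less RNA of ACTB and of skeletal muscle genes. Of the 10 listed genes, 9 had a row among the 22808 gene symbols of the table, and ACTA2 (smooth muscle actin) was not analysed here. All 9 passed the filter on low counts, CNN1 and TAGLN only through their treated libraries. Since this contrast chose the genes, their values are a description and carry no test.

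RD18 is a human cell line of fusion-negative rhabdomyosarcoma, a childhood tumour with features of immature skeletal muscle that lacks the PAX-FOXO1 fusion gene. Cells received lipofectamine alone (vehicle, 4 libraries, with no control RNA named) or miR-449a with miR-340-5p (treated, 4 libraries), and polyadenylated RNA was sequenced after 60 h. All libraries came from 1 line, and the labels name no separate cultures, so the spread between libraries may be technical. Library totals ran from 2567737 to 5569342 counts.

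Actins polymerise into the thin filaments of muscle and the microfilaments of other cells. ACTB and ACTG1 encode the cytoplasmic forms, which non-muscle cells use for shape, adhesion and movement. Calponins, caldesmon (CALD1) and tropomyosins (TPM1 and its paralogues) lie along actin filaments and restrain or steer the pull of myosin, and MYL9 is a regulatory light chain of smooth and non-muscle myosin II. Many of these genes are classical targets of serum response factor (SRF), which binds the CArG box, and its cofactors MRTF-A and MRTF-B (MKL1 and MKL2 in the table) are held in the cytoplasm by actin monomers.

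The transfected microRNAs pair with messenger RNAs through their seed, bases 2 to 8, which is in capitals in the mature RefSeq sequences below. The seeds differ, so each microRNA has target words of its own.
miR-449a: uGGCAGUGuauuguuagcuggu
miR-340-5p: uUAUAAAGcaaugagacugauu

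A transcript can pair with the miR-449a seed through the word CACTGCC and with the miR-340-5p seed through CTTTATA, each of 7 bases, and both were searched on the transcribed strand only. In the longest protein-coding 3′ UTR of GENCODE 29 (GRCh38), 3 of the 9 genes held the miR-449a word (MYL9, TAGLN and TPM1) and 2 held the miR-340-5p word (CALD1 and TPM1). Among 10812 tested genes with a 3′ UTR, 17.9% held the former and 19.9% the latter. In the shortest annotated 3′ UTRs, 1 and 0 of the 9 genes held the words, against 7.84% and 7.57% of all. With the words lengthened to 8 bases by a following A, 0 and 1 did, against 6.06% and 8.19%. The UTRs of CNN1, CNN2, CNN3, ACTB and ACTG1 held neither word in these windows. The matches are shown with the word in capitals inside 30 bases of reference sequence, because they are the places in the transcripts where a seed could pair.
MYL9 chr20:36549704-36549710, miR-449a: ccctgaccggcCACTGCCgcacacccaccc
TAGLN chr11:117204561-117204567, miR-449a: cccgaaagcatCACTGCCttggcccctccc
TPM1 chr15:63044943-63044949, miR-449a: agctctttgtcCACTGCCctttggaagctt
TPM1 chr15:63044810-63044816, miR-340-5p: atagctcagtgCTTTATAtggtatagtgag
CALD1 chr7:134968758-134968764, miR-340-5p: ttgtttctgcaCTTTATAataaagcatgga
CALD1 chr7:134969598-134969604, miR-340-5p: agtactttgatCTTTATAtactctgaagca

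All 6 matches are on the plus strand. How many annotated transcripts hold them differs. The MYL9 word was in 2 of 2 transcripts with a 3′ UTR and the TAGLN word in 3 of 5. The first CALD1 word, which is followed by an A, was in 6 of 7, and the second in 2 of 7. Both TPM1 words were in 1 of 16 transcripts, TPM1-233, which ends early in the gene. The 5 matches outside the first CALD1 word are not followed by an A.

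The CArG box was searched by that name (CC, then 6 bases of A or T, then GG, on both strands) in RefSeq promoter windows of GRCh38.p14. Each window runs from 250 bases before to 50 after a listed start, which need not be the outermost start of the gene. The windows of TPM1 (chr15:63048239-63048538) and ACTG1 lie well inside the gene spans given below. CALD1 and CNN3 had more than 1 window, so the genes were not searched to the same extent. An exact match stood in 454 of 35116 windows (1.29%). Of the 6 genes with a window, CNN2 and ACTG1 held 1 exact match each, CALD1 held 1 match with a mismatch in 1 of its windows (8.13% of all windows hold such a match), and CNN1, CNN3 and TPM1 held none. The windows of CNN1, the gene with the largest fold, and of the genes with an exact match are shown, with the box in capitals.
CNN1 chr19:11538601-11538900, plus strand: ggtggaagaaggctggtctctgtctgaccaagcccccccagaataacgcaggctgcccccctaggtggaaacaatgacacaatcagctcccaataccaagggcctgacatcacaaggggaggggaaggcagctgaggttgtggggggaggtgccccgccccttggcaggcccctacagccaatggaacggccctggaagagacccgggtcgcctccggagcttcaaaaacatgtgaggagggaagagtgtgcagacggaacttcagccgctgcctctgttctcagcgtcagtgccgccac
CNN2 chr19:1026358-1026657, plus strand: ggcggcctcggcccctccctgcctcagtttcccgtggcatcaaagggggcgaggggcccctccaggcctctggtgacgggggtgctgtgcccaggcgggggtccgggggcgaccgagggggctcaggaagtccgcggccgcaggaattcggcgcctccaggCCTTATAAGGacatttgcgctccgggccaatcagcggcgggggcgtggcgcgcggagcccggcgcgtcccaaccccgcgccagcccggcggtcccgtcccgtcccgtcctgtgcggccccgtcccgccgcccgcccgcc
ACTG1 chr17:81512750-81513049, minus strand: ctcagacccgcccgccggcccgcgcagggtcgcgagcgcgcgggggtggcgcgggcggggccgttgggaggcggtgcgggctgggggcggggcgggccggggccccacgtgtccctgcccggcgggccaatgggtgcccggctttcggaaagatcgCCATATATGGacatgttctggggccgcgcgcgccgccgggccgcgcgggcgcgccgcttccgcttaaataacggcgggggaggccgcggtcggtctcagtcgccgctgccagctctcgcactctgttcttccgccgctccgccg

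The CNN2 box begins 89 bases before the start that its window uses (chr19:1026519-1026528). The ACTG1 box begins 94 bases before that of its own window (chr17:81512884-81512893). The table of windows used here held none for TAGLN, MYL9 or ACTB, so these were not searched. No match says only that these letters are not in this window.

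CNN1 (calponin 1, the calponin of differentiated smooth muscle, chr19:11538717-11550323, plus strand) was close to the limit of detection in vehicle cells. Its level, as CPM (counts relative to the TMM-scaled library total), was 0.418, 0.777, 0.449 and 0.754 in vehicle replicates 1 to 4, from 1, 3, 2 and 3 counts. In treated replicates 1 to 4 it was 9.41, 10.1, 11.4 and 10.3 CPM, from 53, 59, 33 and 32 counts. Every treated library was above every vehicle library. The mean went from 0.600 ± 0.192 to 10.3 ± 0.812 CPM (SD, n = 4 each), a log2 fold change of 3.99 (SE 0.38) or 15.9-fold. The vehicle mean rests on 9 counts in all, so the size of the fold is less certain than its direction.

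CNN2 (calponin 2, expressed in many non-muscle cells, chr19:1026581-1039068, plus strand) moved the other way. Its vehicle libraries stood at 41.4, 53.9, 54.1 and 46.2 CPM and its treated libraries at 22.9, 23.7, 29.3 and 23.8 CPM. Treated replicate 3 was the highest of its group, and still below every vehicle library. The means were 48.9 ± 6.19 and 24.9 ± 2.92 CPM (SD, n = 4 each), a log2 fold change of -1.01 (SE 0.12).

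CNN3 (calponin 3, the acidic calponin of non-muscle cells and of myoblasts before fusion, chr1:94896949-94927278, minus strand) did not separate the groups. Vehicle libraries gave 84.9, 88.8, 97.0 and 90.7 CPM. Treated libraries gave 115, 108, 67.1 and 135 CPM. Treated replicates 1, 2 and 4 were above every vehicle library and treated replicate 3 was below every one. The log2 fold change was 0.24 (SE 0.18), and it was 0.39 without treated replicate 3 and 0.13 without treated replicate 4.

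The summed level of the 3 calponins came to 140 ± 10.4 CPM without and 142 ± 25.5 CPM with the microRNAs (SD, n = 4 each), so the sum did not separate the groups, while the shares of CNN1 and CNN2 did. Shares within a family do not depend on the scaling between libraries. The share of CNN1 among calponin counts was 0.429% ± 0.134 in vehicle and 7.53% ± 2.06 in treated cells. That of CNN2 was 34.9% ± 2.19 and 18.4% ± 5.96. CNN3 was the most counted calponin in all 8 libraries, with 64.7% ± 2.23 and 74.1% ± 8.01, and these ranges overlapped. Treated replicate 3 had the highest shares of CNN1 (10.5%) and CNN2 (27.2%) in its group and the lowest of CNN3 (62.3%).

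**Figure D1:**
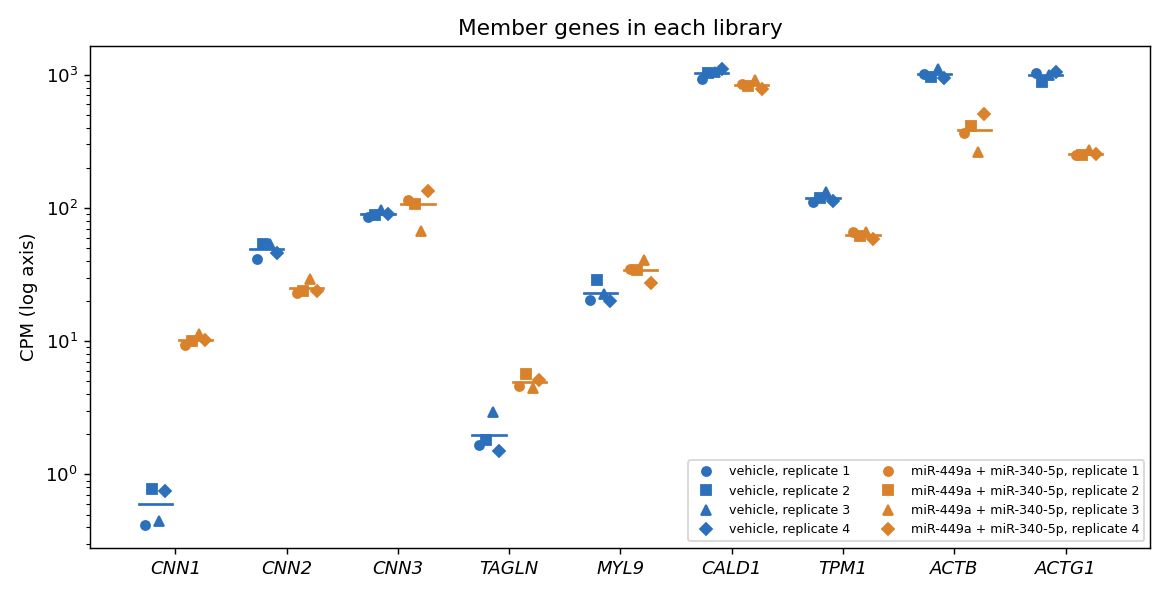
Level of each of the 9 genes in each library, in CPM on a log axis, with vehicle and treated libraries as separate points. CNN1 goes from a mean of 0.600 to 10.3 CPM, both actins move down without overlap, and CNN3 and MYL9 overlap between the groups.

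TAGLN (transgelin or SM22, an early smooth muscle marker of the calponin family, chr11:117199321-117204782, plus strand) was low in both groups. It gave 1.67, 1.81, 2.92 and 1.51 CPM in vehicle libraries and 4.62, 5.63, 4.48 and 5.15 CPM in treated libraries. The groups did not overlap. The log2 fold change was 1.29 (SE 0.35), or 2.44-fold, from 30 counts in vehicle and 88 in treated cells. Exons of PCSK7 lie over TAGLN on the opposite strand, and the strand setting of the counting is not given, so reads of the 2 genes may not be separable. PCSK7 had 161 vehicle and 145 treated counts and a log2 fold change of -0.40 (adjusted p 0.0982, edgeR quasi-likelihood test), under the threshold without treated replicate 1, and its part in the TAGLN value was not tested.

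MYL9 (chr20:36541484-36551447, plus strand) gave 20.5, 28.7, 22.5 and 20.1 CPM in vehicle libraries. It gave 34.97, 34.5, 40.6 and 27.4 CPM in treated libraries. Treated replicate 4 lay just below vehicle replicate 2, and the other 3 treated libraries lay above every vehicle library. As TPM (counts divided by exon length, then by the library's sum, without TMM) the groups did not overlap. They ran from 15.05 to 20.35 and from 24.24 to 33.59 TPM. Exon length is the same in every library, so only the scaling differs from CPM here. The log2 fold change was 0.57 (SE 0.14), or 1.49-fold.

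TPM1 and CALD1, which regulate the access of myosin to the filament, were lower. TPM1 (tropomyosin 1, chr15:63042632-63071915, plus strand), which muscle and non-muscle cells express in different splice forms, gave 112, 119, 133 and 113 CPM in vehicle and 66.6, 61.2, 65.8 and 58.9 CPM in treated libraries. Its groups were well apart, with a log2 fold change of -0.92 (SE 0.08). CALD1 (caldesmon, chr7:134744252-134970728, plus strand) gave 923, 1029, 1054 and 1110 CPM in vehicle and 851, 821, 909 and 781 CPM in treated libraries. The CALD1 groups did not overlap but the gap was small, with a log2 fold change of -0.29 (SE 0.06). It was -0.16 when counts were scaled by library size alone. As TPM, which also leaves out TMM, the groups overlapped. Counts per gene do not separate the splice forms of either gene.

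Both cytoplasmic actins were lower in every treated library. ACTG1 (gamma actin, chr17:81509971-81523847, minus strand) gave 1028, 885.5, 999 and 1050 CPM in vehicle and 249.4, 251.1, 272 and 252.7 CPM in treated libraries. The treated libraries lay close together, with a coefficient of variation of 4.12%. The means were 991 ± 73.2 and 256 ± 10.6 CPM (SD, n = 4 each), a log2 fold change of -1.95 (SE 0.06) or 3.87-fold lower.

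ACTB (beta actin, chr7:5527147-5563784, minus strand), often used as a reference gene in quantitative PCR, gave 1014, 970, 1110 and 950 CPM in vehicle libraries. Its treated libraries gave 365, 410, 263 and 504 CPM. The highest treated library was still well below the lowest vehicle library. The means were 1011 ± 71.2 and 386 ± 100 CPM (SD, n = 4 each), a log2 fold change of -1.39 (SE 0.19) or 2.62-fold lower.

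The treated libraries disagreed on ACTB and CNN3 more than on most genes of such levels. Their coefficients of variation were 25.9% for ACTB and 26.9% for CNN3, while the median over 3545 genes of at least 50 CPM was 7.24% and the 95th percentile 16.8%. Both genes were lowest in treated replicate 3 and highest in treated replicate 4, libraries of similar depth (2842165 and 2913944 counts). Of the 46 genes at that level with a coefficient of variation of 25% or more among treated libraries, 9 had this order. ARPC1A, a subunit of the Arp2/3 complex that was noticed after its values were seen, was among those 9 too (102 ± 31.7 CPM in treated cells). In vehicle libraries ACTB and CNN3 varied by 7.04% and 5.58%, near the median of 6.75%.

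Of the 9 genes, 2 were higher in treated cells without overlap (CNN1 and TAGLN), 5 were lower without overlap (CNN2, CALD1, TPM1, ACTB and ACTG1) and 2 overlapped (CNN3 and MYL9). The background is high, because 58.9% of all 12366 tested genes did not overlap between the groups (29.2% higher and 29.7% lower), and edgeR's quasi-likelihood test called 67.3% of them at a Benjamini-Hochberg adjusted p under 0.05 (33.4% higher and 34.0% lower). Nothing is read from the count of 7, since the contrast chose the genes. The median log2 fold change of the 9 genes was -0.29, and that of all tested genes was -0.00. In bulk RNA, fewer cells of a type and less RNA per cell cannot be told apart.

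**Figure D2:**
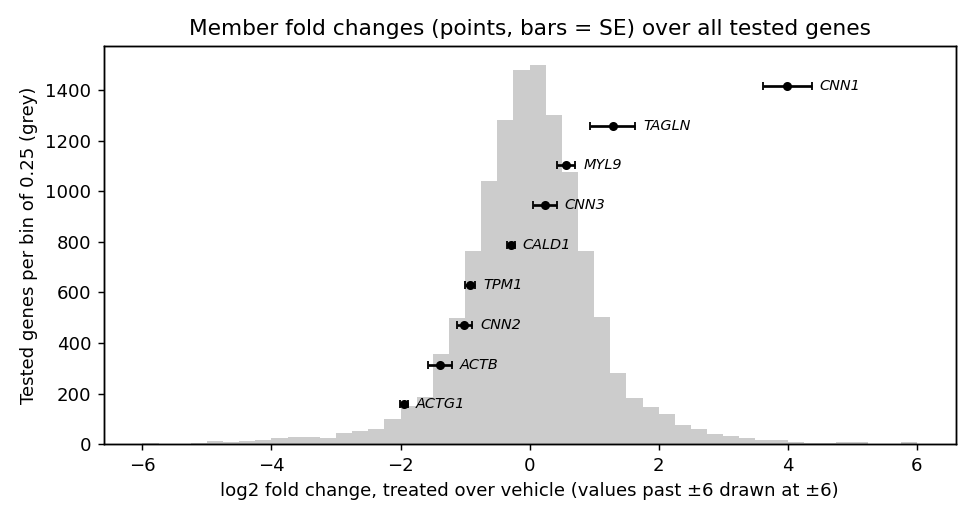
Log2 fold change of treated over vehicle libraries for each of the 9 genes (points, with the SE as bars) over the distribution of all 12366 tested genes. CNN1 at 3.99 and ACTG1 at -1.95 lie in opposite tails, and CALD1, CNN3 and MYL9 lie within the bulk.

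Levels of different genes were compared per length of exon, as TPM (counts divided by exon length, then by the library's sum). In vehicle cells the order was ACTG1 (715 ± 96.5 TPM), ACTB (619 ± 59.9), CALD1 (226 ± 31.2), CNN3 (68.7 ± 7.42), CNN2 (28.9 ± 3.81), TPM1 (19.9 ± 2.18), MYL9 (17.4 ± 2.21), TAGLN (1.09 ± 0.366) and CNN1 (0.448 ± 0.152), each as SD over 4 libraries. The ranges of ACTG1 and ACTB overlapped, as did those of TPM1 and MYL9, and the other neighbours were apart. In treated cells the order was ACTB (266 ± 76.4 TPM), ACTG1 (206 ± 6.26), CALD1 (206 ± 7.23), CNN3 (90.9 ± 26.5), MYL9 (29.3 ± 3.84), CNN2 (16.5 ± 1.61), TPM1 (11.8 ± 0.399), CNN1 (8.59 ± 0.616) and TAGLN (3.06 ± 0.391). ACTB, ACTG1 and CALD1 overlapped there, and every other pair of neighbours was apart. By this measure MYL9 passed CNN2 and TPM1, CNN1 passed TAGLN, and caldesmon reached the range of the cytoplasmic actins. The length is the union of all annotated exons, 12876 bases for TPM1 and 9843 for CALD1, against 2821 for MYL9 and 3519 for ACTB. A single transcript can be much shorter, so TPM1 and CALD1 may be understated. In CPM, MYL9 also passed CNN2 and CNN1 passed TAGLN. However, TPM1 (63.12 CPM) stayed above MYL9 (34.35 CPM) in treated cells, and CALD1 (1029 CPM) was already near ACTB (1011 CPM) in vehicle cells.

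Among the muscle actins, ACTC1 (cardiac actin, also made by immature skeletal muscle) was 486 ± 67.1 CPM with vehicle and 41.4 ± 6.33 CPM with the microRNAs (SD, n = 4 each), a log2 fold change of -3.51 (SE 0.10). Lower skeletal muscle genes were part of how the genes were chosen, so ACTC1, TPM2 and DES are given without a test. ACTA1 (skeletal actin) had 41 counts in vehicle and 7 in treated cells, and ACTG2 (enteric smooth muscle actin) 1 count in each group, so both were left out by the filter. The summed level of ACTB, ACTG1, ACTC1, ACTA1 and ACTG2 came to 2490 ± 110 CPM with vehicle and 684 ± 91.8 CPM with the microRNAs. Within that sum the share of ACTB was 40.6% ± 2.19 and 55.7% ± 7.34, that of ACTG1 39.8% ± 2.46 and 38.1% ± 6.71, and that of ACTC1 19.5% ± 2.52 and 6.13% ± 1.19. Beta actin therefore took a larger part of a smaller pool in every treated library.

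Actin reads can be shared with near-identical genes. Of the POTE family, whose members carry an actin-like part, 4 genes passed the filter on low counts. POTEF, POTEJ and POTEKP did so only through their treated libraries, so they are given as values without a test. POTEJ had 34 vehicle and 76 treated counts (log2 fold change 0.97) and POTEKP had 35 and 84 (1.04), with overlapping groups for both. Near copies that did not pass the filter moved little or either way. Vehicle and treated counts were 23 and 22 for ACTBP2, 10 and 11 for ACTG1P9, 4 and 11 for ACTG1P17, 7 and 1 for ACTG1P14, and 6 and 8 for POTEI. They are outside the rule for named genes and were looked at because of their likeness to actin. POTEE rose from 6.94 ± 0.532 to 15.9 ± 2.23 CPM (log2 fold change 1.17, adjusted p 1.11e-06, edgeR), where 33.4% of all tested genes were called higher. POTEF went from 0.865 ± 0.264 to 3.03 ± 0.473 CPM (log2 fold change 1.86), from 12 vehicle and 54 treated counts. The levels of all these near copies are far below those of ACTB and ACTG1. How the counting split reads between them is not given in the sources used here.

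The other tropomyosins are abundant in these cells. TPM2 (beta tropomyosin of skeletal and smooth muscle) was 353 ± 39.2 and 241 ± 9.82 CPM (log2 fold change -0.55, SE 0.06). TPM4, a non-muscle form, rose from 341 ± 22.1 to 394 ± 24.2 CPM (0.21, adjusted p 0.00163, edgeR). TPM3 was 305 ± 11.1 and 318 ± 8.55 CPM (0.06, adjusted p 0.385). In shares of tropomyosin counts, TPM1 went from 10.7% ± 0.638 to 6.21% ± 0.275 and TPM4 from 30.5% ± 0.491 to 38.7% ± 1.12, without overlap. The tropomyosin sum was 1118 ± 60.1 and 1016 ± 40.3 CPM. The list of muscle actins and other tropomyosins held 4 genes that passed the filter. Of these, 2 had a log2 fold change above 0 and 2 below, with a median of -0.25. The 2 below are ACTC1 and TPM2, which carry no test, and of the rest edgeR called TPM4 higher.

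**Figure D3:**
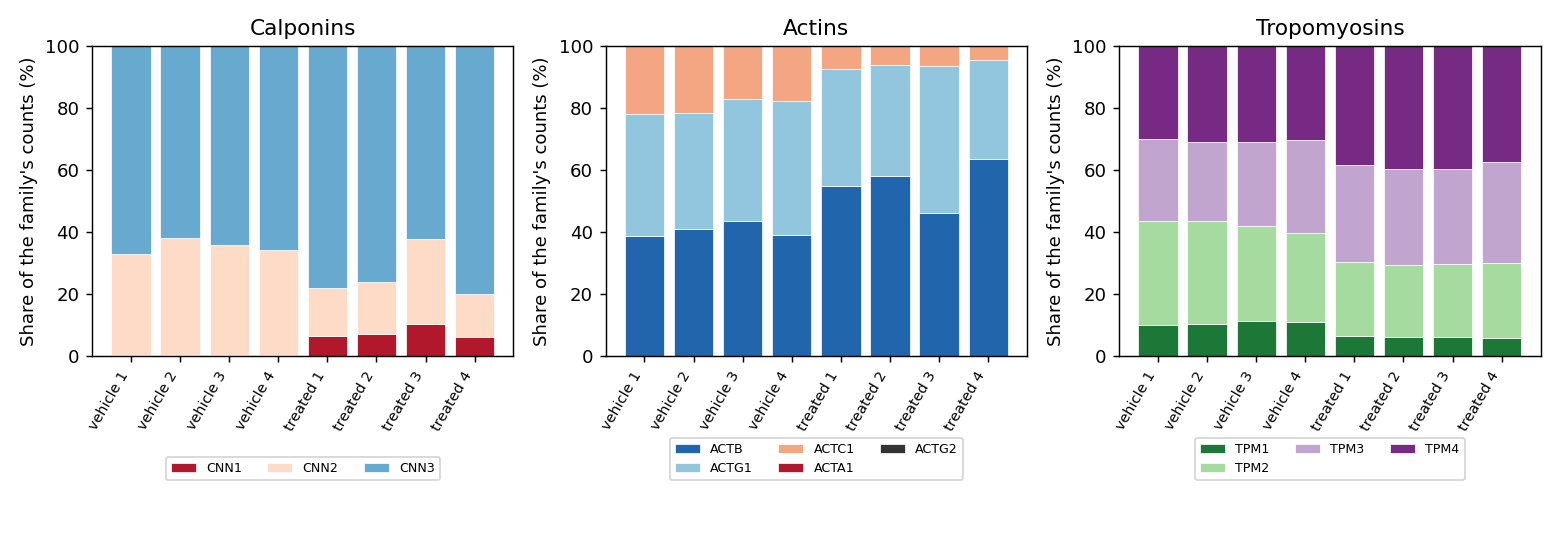
Share of each gene in the counts of its family, in percent, for calponins (left), actins (middle) and tropomyosins (right), with 1 stacked bar per library. CNN1 becomes visible only in the treated bars, ACTC1 shrinks from 19.5% to 6.13% of actin counts, and ACTA1 and ACTG2 are too rare to see.

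SRF itself averaged 141 ± 16.4 CPM with vehicle against 160 ± 16.8 CPM with the microRNAs (log2 fold change 0.18, adjusted p 0.0303, edgeR), with overlapping groups, and this call was lost in 4 of the 8 fits that left out 1 library (vehicle replicate 1, 2 or 3 or treated replicate 2), with adjusted p over all alternatives from 0.000623 to 0.213. MKL1 (MRTF-A) was 6.22 ± 2.47 and 3.58 ± 1.06 CPM (-0.74, adjusted p 0.0356), from 85 and 62 counts, and its call was lost in 4 of those 8 fits (vehicle replicate 1 or 2 or treated replicate 1 or 4) and under 5 of 9 other settings, with adjusted p over all alternatives from 0.019 to 0.177. MKL2 (MRTF-B) was 14.0 ± 1.48 and 13.5 ± 2.94 CPM (-0.11, adjusted p 0.596). MYOCD (myocardin, the cofactor of smooth and heart muscle) was not analysed here. ELK1 and ELK3, ternary complex factors that compete with MRTFs for SRF, fell by 0.99 and 0.50 on the log2 scale (adjusted p 1.9e-05 and 1.45e-05). Of the 7 tested genes of this list, 1 was called higher and 3 lower (57.1%, against 67.3% of all tested genes), with a median of -0.13.

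Genes that smooth muscle shares with CNN1 and TAGLN moved both ways. Of 10 tested genes of the list, edgeR called 4 higher, where 33.4% of all tested genes were called higher. The log2 fold change was below 0 for 5, and the median was -0.26. DES is 1 of those 5 and carries no test, since lower skeletal muscle genes were part of the choice. SYNPO2 (synaptopodin 2 or myopodin, an actin-bundling protein of the Z-disc) rose from 69.7 ± 3.09 to 134 ± 17.4 CPM (0.94, adjusted p 9e-15). SYNM (synemin, an intermediate filament protein) rose from 90.8 ± 5.48 to 153 ± 9.12 CPM (0.76, adjusted p 2.49e-13). DES (desmin, of all muscle types) was 108 ± 10.6 and 67.7 ± 7.14 CPM (-0.66, SE 0.09). CSRP1, a LIM protein of smooth muscle, fell from 64.9 ± 2.81 to 44.5 ± 2.03 CPM (-0.54, adjusted p 2.2e-06). MYH11, the myosin heavy chain that defines mature smooth muscle, had 0 counts in vehicle and 2 in treated cells.

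Reported targets of SRF with MRTF outside smooth muscle were also divided. Of 19 tested, 5 were called higher and 6 lower (57.9%, against 67.3% of all tested genes), with a median of -0.21. Scaled by library size alone, 3 were called lower. LIMA1 (eplin, which stabilises actin filaments) rose from 51.6 ± 4.63 to 178 ± 7.79 CPM (log2 fold change 1.80, adjusted p 5.72e-28, edgeR). JUNB, an immediate early transcription factor, rose by 1.69 on the log2 scale (adjusted p 3.34e-17), and TRIO, a guanine nucleotide exchange factor, by 0.90 (adjusted p 2.65e-16). NEXN (nexilin, an actin-binding protein) fell from 188 ± 20.9 to 91.9 ± 9.71 CPM (-1.01, adjusted p 7.89e-17).

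Several genes whose proteins bind actin monomers or turn filaments over fell. CFL1 (cofilin 1, which severs filaments) fell from 439 ± 4.78 to 57.5 ± 7.62 CPM, a log2 fold change of -2.91 (SE 0.07, adjusted p 2.01e-41, edgeR). CAP1, a cofilin partner, fell from 252 ± 24.6 to 76.0 ± 6.16 CPM (-1.74, adjusted p 8.77e-29). The monomer-binding thymosins TMSB15A (-2.30, adjusted p 8.39e-25) and TMSB10 (-0.95, adjusted p 1.47e-23) fell, the latter from 1098 ± 22.4 to 567 ± 38.5 CPM. Of 26 tested genes, 10 were called higher and 13 lower (88.5%, against 67.3% of all tested genes), with a median of -0.12.

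Nucleators of actin filaments were split as well, with a median of 0.05. Of 25 tested, 11 were called higher and 9 lower (80.0%, against 67.3% of all tested genes). The formins DIAPH1 and DIAPH3, which RhoA activates to build unbranched filaments, fell by 1.77 and 3.22 on the log2 scale (adjusted p 2.85e-22 and 8.3e-22, edgeR). DIAPH3 went from 32.7 ± 3.73 to 3.75 ± 1.41 CPM. The formin DAAM1 rose from 130 ± 9.39 to 255 ± 7.87 CPM (0.97, adjusted p 7.67e-20), and CTTN (cortactin, which stabilises branches) from 89.1 ± 8.87 to 180 ± 13.3 CPM (1.01, adjusted p 7.74e-18).

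The list of non-muscle myosin II and the RhoA-ROCK pathway, which drives contraction of non-muscle cells through MYL9 and its relatives, had a median of 0.09. Of its 24 tested genes, 9 were called higher and 11 lower (83.3%, against 67.3% of all tested genes). Scaled by library size alone, 6 were called lower. RND3, which antagonises RhoA signalling, rose from 130 ± 8.42 to 634 ± 61.9 CPM (log2 fold change 2.29, adjusted p 6.88e-36, edgeR). RHOA fell from 305 ± 10.4 to 131 ± 9.62 CPM (-1.23, adjusted p 5.88e-25), and its kinase ROCK1 from 207 ± 14.95 to 103 ± 12.9 CPM (adjusted p 8.14e-18). PPP1R14B, an inhibitor of protein phosphatase 1, fell from 182 ± 5.03 to 49.5 ± 9.48 CPM (-1.84, adjusted p 2.76e-26).

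Filament crosslinkers and focal adhesion genes had the lowest median of the tested actin lists, at -0.38. Of 27 tested, 5 were called higher and 14 lower (70.4%, against 67.3% of all tested genes). FSCN1 (fascin, which bundles filaments in filopodia) fell from 1483 ± 60.3 to 382 ± 39.8 CPM (log2 fold change -1.96, adjusted p 8.4e-36, edgeR), close in size to ACTG1. PALLD (palladin) fell by 2.22, TLN1 (talin 1) by 1.78 and VCL (vinculin) by 1.15 on the log2 scale, with adjusted p of 5.94e-29, 1.6e-24 and 2.24e-23.

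**Figure D4:**
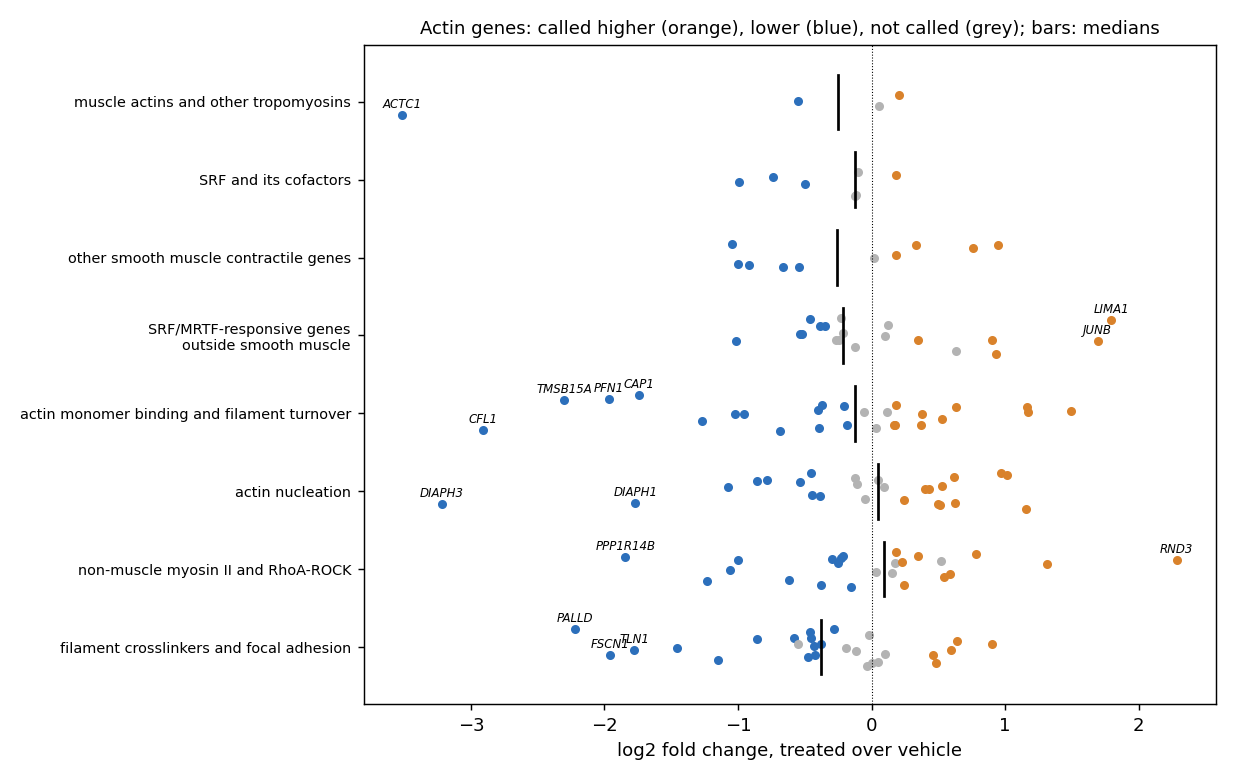
Log2 fold change of each tested gene of 8 actin cytoskeleton lists (points, 1 row per list), with the list's median as a vertical bar and the call of edgeR's quasi-likelihood test as the colour. Every row holds called genes on both sides of 0 (ACTC1, TPM2 and DES are coloured too, though their lower values were part of the choice), and the medians run from -0.38 to 0.09.

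The skeletal thin filament and sarcomere genes were part of how the genes were chosen, so they are given as values only. Of 14 that passed the filter, 13 had a log2 fold change below 0 and 1, TNNT1 (slow troponin T), above it, with a median of -1.93. TTN (titin) averaged 224 ± 50.1 CPM with vehicle against 31.8 ± 9.01 CPM with the microRNAs, and MYL1 (a fast light chain) 215 ± 38.9 and 36.3 ± 7.69 CPM. TNNT1 was 517 ± 17.4 and 708 ± 50.7 CPM. TTN, MYL1 and TNNT1 are named after their values were seen.

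The label of the cells was checked by markers. MYOD1 (204 ± 21.7 CPM), DES (108 ± 10.6 CPM) and CHRNA1 (814 ± 16.5 CPM) were present in vehicle cells, and MYOG at 10.4 ± 1.89 CPM. The list holds 8 skeletal markers, also PAX7, CDH15, MYF6 and TMEM8C (myomaker). Of the 8, 6 passed the filter on low counts, and MYF6 and TMEM8C did not. In treated cells MYOD1 was 108 ± 3.72 CPM (log2 fold change -0.91, SE 0.07) and MYOG 0.646 ± 0.372 CPM (-3.78, SE 0.37). These skeletal genes are given as values only, for the same reason. The summed level of all 8 markers of the list ran from 1230 to 1283 CPM in vehicle and from 859 to 894 CPM in treated libraries.

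Markers of cells other than muscle moved as follows, and their part in the CNN1 and TAGLN values was not tested. Their counts stand beside 33.4% of all tested genes called higher and 34.0% called lower. Pericyte and vascular smooth muscle markers summed to 40.7 to 50.2 CPM in vehicle and 23.5 to 32.7 CPM in treated libraries, with 0 of 5 tested called higher and 2 lower (NOTCH3 and ABCC9). KCNJ8 was at 0 in all treated libraries and MYH11 at 0 in all vehicle libraries. Fibroblast and myofibroblast markers summed to 810 to 917 and 1039 to 1274 CPM, with 2 of 7 called higher (COL1A1 and COL3A1) and 2 lower (LUM and S100A4). Epithelial markers summed to 38.6 to 49.7 and 71.9 to 83.3 CPM, with all 3 tested called higher (KRT8, KRT18 and CLDN4), and CDH1 was at 0 in all vehicle libraries. Leukocyte and endothelial markers summed to at most 3.27 CPM, and none passed the filter. The KRT8 call was lost without vehicle replicate 1 or 4 (adjusted p up to 0.0706). The label names a single cell line.

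The 3 genes whose profile over the 8 libraries lay nearest to that of CNN1, by Euclidean distance of centred log2 CPM among 10752 genes of at least 5 CPM, were IFI16 (distance 0.507), IER3 (0.542) and TLCD2 (0.573). IFI16, an interferon-inducible DNA sensor, went from 52.9 ± 3.44 to 524 ± 16.5 CPM, and IER3, an immediate early gene, from 18.1 ± 3.88 to 162 ± 20.3 CPM. The nearest to ACTB were METTL10 (0.323), a methyltransferase, the receptor NOTCH2 (0.347) and AP3M1 (0.381), a subunit of the AP-3 adaptor, with log2 fold changes of -1.36, -1.39 and -1.30. With 8 libraries in 2 groups, this distance is set mainly by the fold between the groups.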

How the data were processed

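Per the labels, a strand-specific mRNA kit was used on RNA of RD18 cells and sequencing ran on an Illumina HiSeq4000. The authors deposited raw read counts in 1 table, with a row per gene symbol and a column per library, and 0 columns of it were left out. Per the submitters' processing notes the tools were TopHat2 2.0.13, SAMtools 0.1.19.24, HTSeq 0.5.3p3 and DESeq2, with the build GRCh38. For the counting, the strand setting is not given in the sources used here, and neither is the annotation. Columns were matched to samples through the library code in each description.

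From these counts, edgeR 4.0.16 (R 4.3.3) kept 12366 genes by filterByExpr (minimum count 10, minimum total 15), which hold 99.46% of counts, scaled them by TMM and tested treated against vehicle libraries (glmQLFit, robust, and glmQLFTest, two-sided, group as the only term), with Benjamini-Hochberg adjustment over all tested genes and a threshold of 0.05. CPM uses the TMM-scaled library sizes. The SE is the absolute log2 fold change divided by the root of F. TPM uses the union of exons in GENCODE 29, to which 17606 symbols matched by name, 528 through another symbol and 4674 not at all. The fit was tested on simulated data. Within groups the correlation of log2 CPM was at least 0.972. Replicates differed by more than sampling noise and were counted separately.

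The members, gene lists and tests were chosen with earlier results of these data known. Named are the members, their paralogues, SRF, MKL1, MKL2 and MYOCD, the markers MYOD1, MYOG and DES, up to 4 genes of each other list with the smallest adjusted p and a mean of at least 1 CPM, and the 3 nearest profiles to CNN1 and to ACTB. COL1A1, COL3A1, LUM, S100A4, NOTCH3, ABCC9, KRT8, KRT18 and CLDN4 follow from that rule. Alternatives were DESeq2 1.42.0, limma-voom (limma 3.58.1), other scalings and filters, a replicate block, and leaving out each library.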

Additional observations from a re-analysis of the deposited data

Results flagged for a closer look

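In each group of 4 libraries the highest or lowest value was compared with the rest of its group for 58 genes, 116 groups in all, and 8 held a library that stood apart. Chance gives about 1 in 20 groups. Among the genes of interest, CNN2 stood at 29.3 CPM in treated replicate 3, where the other treated libraries ran from 22.9 to 23.8 CPM. ACTG1 stood at 272 CPM in the same library, where the others ran from 249.4 to 252.7 CPM. Both genes were higher there than in the other treated libraries, while ACTB and CNN3 were lowest there. DIAPH3 was also highest in that library, at 5.85 CPM against 2.84 to 3.22 CPM.

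LIMA1 was lowest in treated replicate 2, at 166 CPM, with the others at 181 to 183 CPM. DAAM1 was lowest in vehicle replicate 1, at 116 CPM, with the others at 133 to 136 CPM. CTTN was lowest in vehicle replicate 2, at 75.9 CPM, with the others at 92.9 to 94.6 CPM. ACTG2 was at 0.418 CPM in vehicle replicate 1 and at 0.178 CPM in treated replicate 1, each from 1 count, and at 0 in the other 6 libraries.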

How the results depend on the processing

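Every member kept the direction of its fold under all alternatives run (other scalings and filters, DESeq2, limma-voom, a replicate block and leaving out each library). CNN1 ran from 3.82 to 4.12 on the log2 scale, TAGLN from 1.17 to 1.57, MYL9 from 0.51 to 0.71, CNN3 from 0.13 to 0.39, CALD1 from -0.35 to -0.16, TPM1 from -0.95 to -0.78, CNN2 from -1.07 to -0.87, ACTG1 from -2.01 to -1.82 and ACTB from -1.53 to -1.25. Scaling by library size alone shifted the median of all tested genes by 0.14 and the share of higher calls from 49.6% to 58.6%. With it 2 muscle actins or tropomyosins were called higher in place of 1, 3 SRF/MRTF-responsive genes lower in place of 6, and 6 myosin II or RhoA-ROCK genes lower in place of 11. In the SRF list 0 genes were called higher with DESeq2 or at an adjusted p under 0.01, and 0 to 1 when single libraries were left out. There, 0 was reached without vehicle replicate 1, 2 or 3 or treated replicate 2. At 0.01, 2 other smooth muscle genes were called higher in place of 4. With shortest 3′ UTRs, 1 member held the miR-449a word and 0 the miR-340-5p word, and with words of 8 bases 0 and 1 did. Whether the replicate numbers pair the libraries is not settled by these values. Correlations of deviations between same-numbered libraries were only 0.0135 to 0.0555, but 3 of the 4 correlated best with their own number. A fit with the replicate block called 4102 genes higher and 4171 lower, against 4125 and 4199 without it. Depth limits CNN1 in vehicle cells, TAGLN, MKL1, ACTA1, ACTG2 and MYH11. The stricter threshold was not run for the members and sarcomere genes, which carry no test.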
